A study of Homo sapiens with 12 samples.

Results

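The 44 genes described here are targets of the transcription factor MYC that serve ribosome biogenesis, together with the polyamine, nucleotide, chaperone and mitochondrial genes usually listed with them. They were taken by symbol from the table of raw counts, where all 44 were present among 30017 symbols and all 44 were among the 16010 genes with enough reads to test. The members were chosen with earlier results of these data known, so their contrast with all genes is no independent test. MYC pairs with MAX and binds the E-box CACGTG near the starts of genes that build ribosomes. Making a ribosome begins in the nucleolus, where RNA polymerase I copies the rRNA precursor. Small nucleolar ribonucleoproteins (snoRNPs) then guide its cleavage and modification, and separate sets of assembly factors mature the small and the large subunit. In leukaemia cells with high MYC this programme runs at a high rate.

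RNA sequencing was done on THP-1, an acute myeloid leukaemia cell line of monocytic type, in 4 groups of 3 libraries. The groups were IRAK4 knockout cells given 50 nM CC-885, IRAK4 knockout cells given DMSO, wild-type cells given 50 nM CC-885 and wild-type cells given DMSO, each for 12 h. All cells had been electroporated with Cas9, the knockouts together with a guide RNA for IRAK4, and had been grown out from single cells and checked by PCR and Sanger sequencing. CC-885 recruits the termination factor GSPT1 to the cereblon ubiquitin ligase for degradation, and IRAK4 is a signalling kinase downstream of Toll-like receptors. The labels give neither the number of clones per genotype nor whether replicates were separate cultures. Genotype and clone therefore cannot be told apart, and p-values measure only the spread between these libraries, which may be technical.

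Libraries held 46903984 to 56675539 counts. IRAK4 itself had 31.7, 30.8 and 29.6 CPM (reads scaled to library size with TMM factors, as for every level given here) in the knockout CC-885 libraries and 7.28, 8.72 and 8.78 CPM in the knockout DMSO libraries, against 65.4, 69.4 and 83.6 CPM in the wild-type CC-885 libraries and 53.9, 50.9 and 51.6 CPM in the wild-type DMSO libraries. The knockout libraries were lower than the wild-type ones under either treatment, although gene counts do not show whether a transcript was edited. GSPT1 mRNA averaged 298 ± 2.29 CPM in knockout CC-885, 180.3 ± 9.65 CPM in knockout DMSO, 253 ± 6.02 CPM in wild-type CC-885 and 223 ± 8.58 CPM in wild-type DMSO libraries (SD, n = 3 each). MYC mRNA averaged 49.3 ± 2.30 CPM in knockout CC-885, 314 ± 8.47 CPM in knockout DMSO, 81.6 ± 7.34 CPM in wild-type CC-885 and 273 ± 5.25 CPM in wild-type DMSO libraries (SD, n = 3 each), and the MYC groups did not overlap. All 11 myeloid markers of THP-1, which include the granule genes MPO, ELANE and AZU1, were above 1 CPM in every group. Their summed level was 3907 to 4059 CPM in knockout CC-885, 7964 to 9642 CPM in knockout DMSO, 2794 to 2833 CPM in wild-type CC-885 and 3971 to 4153 CPM in wild-type DMSO libraries. AZU1, ELANE and LYZ averaged 3944, 1912 and 1685 CPM in knockout DMSO and 964, 930 and 983 CPM in wild-type DMSO libraries. SPI1 averaged 357 and 379 CPM in the same order. PTPRC alone was higher under CC-885, at 665 against 295 CPM in knockout and 671 against 265 CPM in wild-type cells. Every other marker of the 11 had a lower mean under CC-885 than under DMSO in both genotypes. CD33 had 29.2 against 88.4 CPM in knockout and 37.3 against 81.2 CPM in wild-type cells, and CSF1R 49.3 against 234 and 72.1 against 128 CPM. Summed T and NK cell markers reached at most 20.0 CPM, B cell markers 8.53 CPM and erythroid markers 0.693 CPM in any library. Of 7 epithelial, stromal and endothelial markers 1 or 2 exceeded 1 CPM, and their sum was 93.8 to 101 CPM in knockout CC-885, 393 to 443 CPM in knockout DMSO, 107 to 116 CPM in wild-type CC-885 and 263 to 303 CPM in wild-type DMSO libraries. The part of these marker levels in the results below was not tested. Wild-type CC-885 replicate 3 stood apart: a chi-square comparison of its counts with replicates 1 and 2 gave 76.1 and 62.3 per degree of freedom, where all other replicate pairs gave 4.10 to 21.0. Counts that it moved, and values of single members whose call in a response to CC-885 it changed, are given with and without it.

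The members as a set were lowest in knockout cells given CC-885 and highest in wild-type cells given DMSO. They took 0.424% ± 0.00517 of all counts in knockout CC-885, 0.601% ± 0.0165 in knockout DMSO, 0.615% ± 0.0431 in wild-type CC-885 and 0.835% ± 0.0428 in wild-type DMSO libraries (SD, n = 3 each). Knockout DMSO and wild-type CC-885 libraries overlapped, at 0.583% to 0.615% and 0.589% to 0.665%. Of the 44 members, 29 had their lowest group mean in knockout CC-885, 13 in knockout DMSO and 2 in wild-type CC-885 libraries. The highest mean lay in wild-type DMSO libraries for 34 members. The shares of all genes with these orders were not computed. The knockout CC-885 mean was 49.0% of the wild-type DMSO mean at the median over members, with a range of 12.9% to 151%, and 5 members were above their wild-type DMSO mean. In bulk RNA, fewer cells of a kind and less RNA per cell cannot be told apart.

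**Figure D1:**
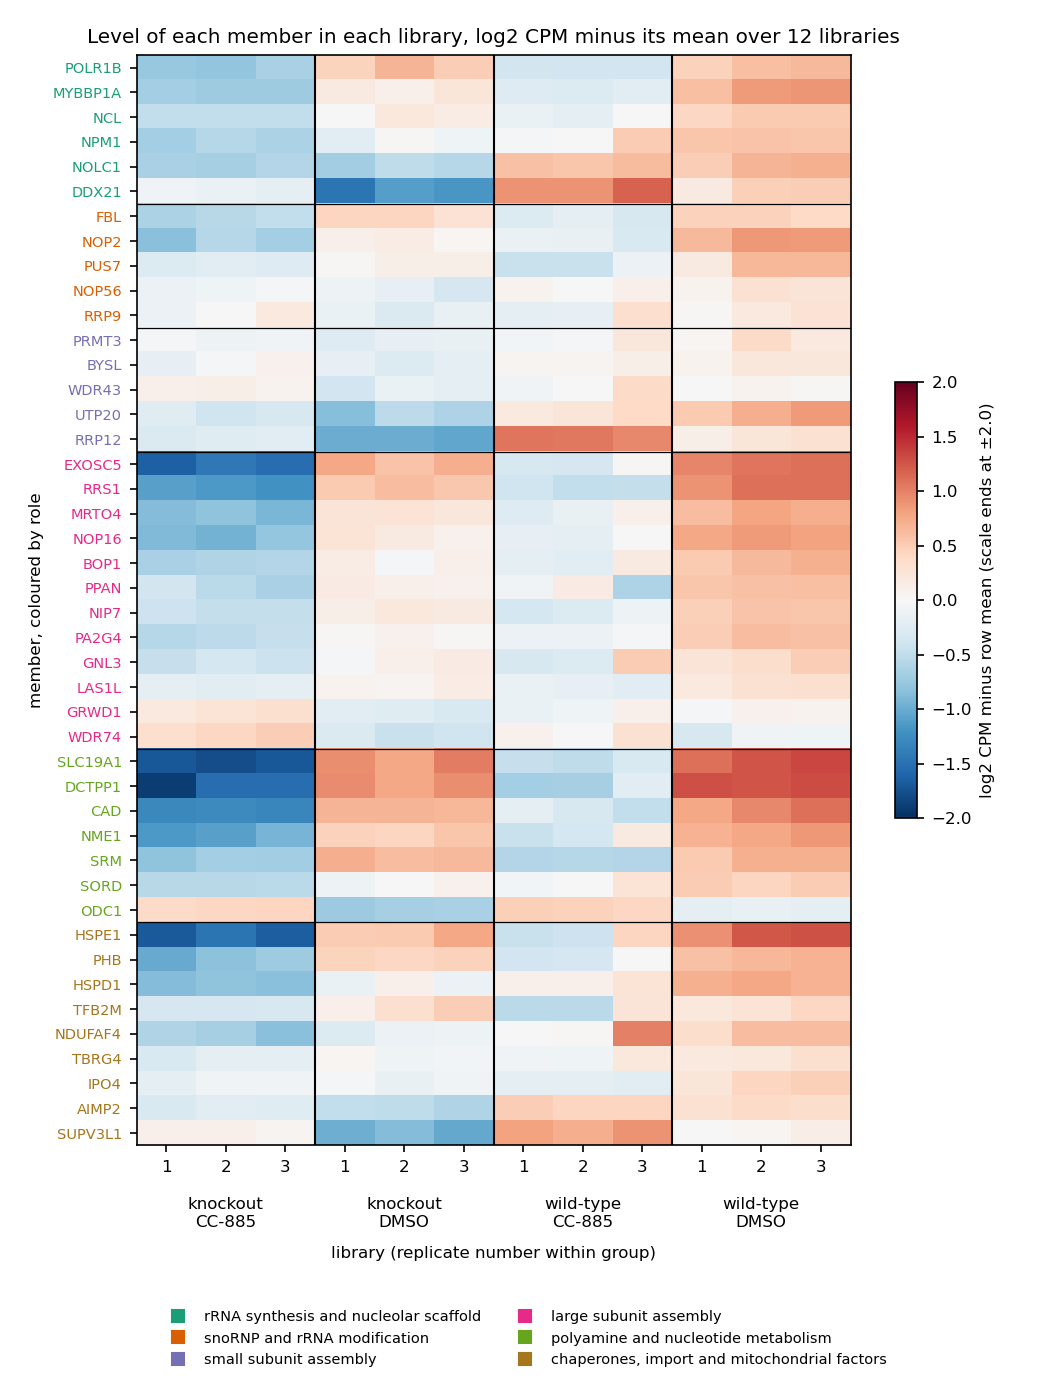
Level of each of the 44 members (rows, grouped by role) in each of the 12 libraries (columns), as log2 CPM minus the gene's mean over all libraries; blue is below and red above that mean, and the colour scale ends at ±2.0. Most rows are red in the 3 wild-type DMSO columns and blue in the 3 knockout CC-885 columns, while ODC1 is red under CC-885 in both genotypes.

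In IRAK4 knockout cells, 28 of the 44 members fell under CC-885 and 10 rose (edgeR quasi-likelihood test, Benjamini-Hochberg adjusted p under 0.05, log2 fold changes of CC-885 over DMSO throughout). Of all 16010 genes, 78.9% were called, 40% as lower and 38.9% as higher, so calls were common in either direction. The fallen members were 63.6% of the 44. The members' median log2 fold change was -0.56, against -0.033 over all genes tested. With upper-quartile factors, which moved the median of all genes by -0.148, 6 members were higher and the members' median was -0.703. A fall of at least 2-fold was called for 12 members and for 20.2% of all genes. In 41 members the 3 CC-885 libraries lay all above or all below the 3 DMSO libraries, as did 81.9% of all genes. The largest falls were those of SLC19A1, DCTPP1, EXOSC5, HSPE1 and CAD, and the largest rises those of DDX21, ODC1, SUPV3L1, WDR74 and RRP12.

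In wild-type cells, 29 members fell under CC-885 and 5 rose, beside 72.3% of all genes called, 36.6% lower and 35.7% higher. The members' median was -0.57, against -0.034 over all genes, and 8 fell at least 2-fold (12.7% of all genes). In 33 members the CC-885 and DMSO libraries did not overlap, as in 73.8% of all genes. Without wild-type CC-885 replicate 3, 35 members fell and 5 rose, and the median was -0.64. The 6 members called without that library and not with all 12 were GNL3, NDUFAF4, RRP9, PRMT3, NOP56 and GRWD1, the last with -0.16 in place of -0.08. The falls of DCTPP1, SLC19A1, RRS1, CAD and EXOSC5 were the largest, and RRP12, SUPV3L1, ODC1, DDX21 and WDR74 were the 5 that rose. The 2 genotypes were measured in separate libraries, and 27 members (61.4%) fell in both, beside 32% of all genes tested, and 5 (11.4%) rose in both, beside 31.9%. Neither response was called for 5 members (11.4%), beside 13.9% of all genes. Across the 44 members the responses in knockout and in wild-type cells had a Pearson r of 0.938 and a Spearman rho of 0.934, beside 0.894 and 0.895 across all genes tested. Genes are no independent replicates, and these coefficients describe the 2 sets of responses only.

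**Figure D2:**
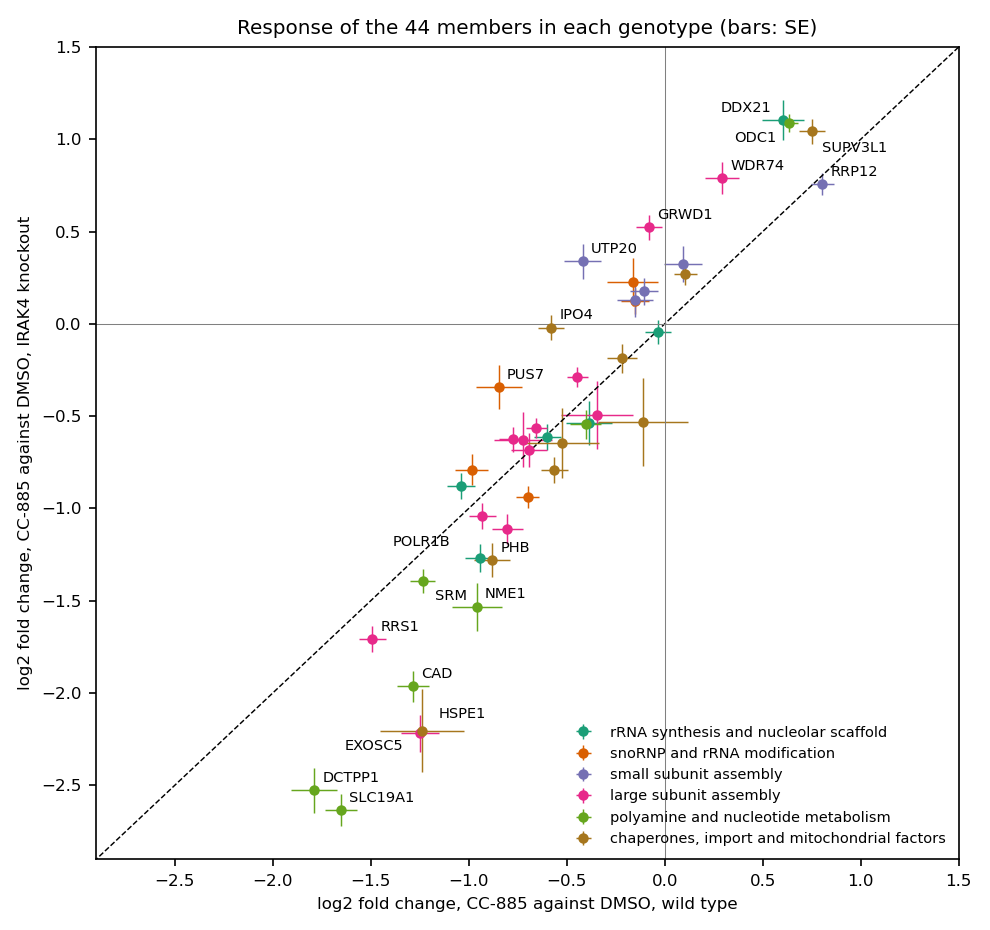
Log2 fold change of CC-885 over DMSO in IRAK4 knockout cells (vertical axis) against that in wild-type cells (horizontal axis) for the 44 members, coloured by role, with bars of ±1 SE from the edgeR fit; the dashed line marks equal responses. Members with large falls, such as SLC19A1 at -2.63 in knockout and -1.65 in wild-type cells, lie below the line, and members that rose in knockout cells lie mostly above it.

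Of the 6 members that act in rRNA synthesis or as nucleolar scaffolds, 4 fell under CC-885 in each genotype, and DDX21 rose in both. Beside the counts of this and the following roles stand 40% of all genes lower and 38.9% higher in knockout cells. In wild-type cells these shares of all genes were 36.6% and 35.7%. POLR1B, the second-largest subunit of RNA polymerase I, showed a large fall. In knockout cells POLR1B had 22.9, 22.5 and 24.8 CPM under CC-885 and 52.7, 62.1 and 54.1 CPM under DMSO. Wild-type values of POLR1B were 30.0, 29.5 and 29.7 CPM under CC-885 and 53.1, 58.4 and 60.3 CPM under DMSO. The treatments did not overlap in either genotype, and the DMSO libraries of the genotypes did. POLR1B fell by 1.27 on the log2 scale in knockout cells (SE 0.08, edgeR adjusted p = 2.04e-10) and by 0.94 in wild-type cells (SE 0.08, adjusted p = 1.16e-08). MYBBP1A, a nucleolar MYB-binding protein, fell similarly, with log2 fold changes of -0.88 in knockout and -1.04 in wild-type cells.

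NCL (nucleolin) and NPM1 (nucleophosmin), abundant nucleolar proteins that bind pre-rRNA and chaperone assembly, had falls of medium size. In knockout cells NCL had 684, 685 and 687 CPM under CC-885 and 959.7, 1121 and 1065 CPM under DMSO. Wild-type values of NCL were 876, 841 and 967 CPM under CC-885 and 1291, 1391 and 1387 CPM under DMSO. The knockout CC-885 libraries were the lowest 3 of the 12 and agreed to within a few CPM, and the wild-type DMSO libraries were the highest 3. NCL changed by -0.61 (SE 0.07, adjusted p = 4.62e-07) in knockout and -0.60 (SE 0.07, adjusted p = 7.95e-07) in wild-type cells by edgeR. In knockout cells NPM1 had 498, 539 and 517 CPM under CC-885 and 688, 814 and 754 CPM under DMSO. Wild-type values of NPM1 were 777, 798 and 1142 CPM under CC-885 and 1181, 1191 and 1179 CPM under DMSO. Replicate 3 of the wild-type CC-885 group was near the DMSO level, and the other 2 were well under it. The log2 fold change of NPM1 in wild-type cells was -0.39 with all libraries and -0.59 without wild-type CC-885 replicate 3, next to -0.54 in knockout cells. NPM1 has 45 annotated pseudogenes named after it, which can take or lend reads.

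DDX21, an RNA helicase that promotes RNA polymerase I transcription and rRNA processing, went the other way. In knockout cells DDX21 had 253, 241 and 233 CPM under CC-885 and 96.4, 123 and 119 CPM under DMSO. Wild-type values of DDX21 were 492, 492 and 599 CPM under CC-885 and 301, 368 and 371 CPM under DMSO. The CC-885 libraries were above the DMSO libraries in both genotypes, and the knockout CC-885 libraries were nonetheless below all wild-type DMSO libraries. DDX21 rose by 1.10 (SE 0.11, adjusted p = 2.21e-07) in knockout and 0.60 (SE 0.11, adjusted p = 1.24e-04) in wild-type cells on the log2 scale (edgeR). Knockout over wild type, DDX21 had a log2 fold change of -1.62 under DMSO, the largest such difference among the members, and of -1.12 under CC-885. The DMSO difference and the knockout response share the 3 knockout DMSO libraries. NOLC1, a scaffold that links RNA polymerase I with snoRNPs, differed by genotype and was not called for treatment. In knockout cells NOLC1 had 111, 109 and 115 CPM under CC-885 and 107, 121 and 117 CPM under DMSO. Wild-type values of NOLC1 were 259, 254 and 269 CPM under CC-885 and 243, 277 and 282 CPM under DMSO. Each knockout library held less NOLC1 than any wild-type library, and the treatments overlapped within each genotype. Knockout over wild type was -1.22 (SE 0.07, adjusted p = 6.34e-10) under DMSO and -1.22 (SE 0.07, adjusted p = 4.53e-10) under CC-885, and the CC-885 response was -0.04 (SE 0.07, adjusted p = 0.553) in knockout and -0.03 (SE 0.06, adjusted p = 0.644) in wild-type cells (edgeR).

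**Figure D3:**
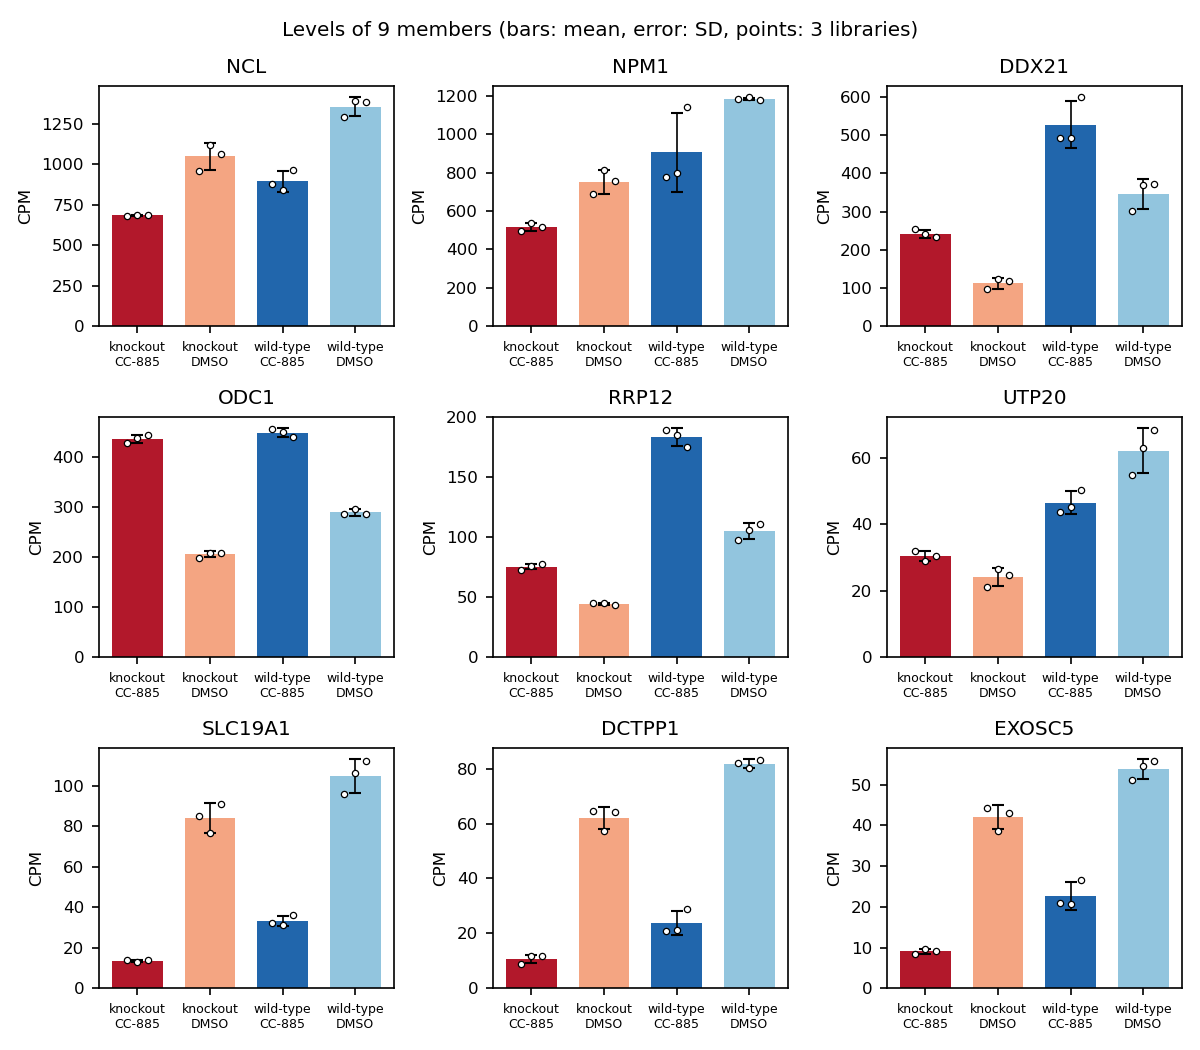
CPM with TMM factors (linear axes from 0) of 9 members in the 4 groups, 1 panel per gene; bars are group means, error bars SD and points the 3 libraries of a group. The panels show SLC19A1, DCTPP1 and EXOSC5 lower under CC-885 in both genotypes, ODC1, DDX21 and RRP12 higher, and UTP20 higher in knockout and lower in wild-type cells.

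Promoters of rising and of falling members held the E-box CACGTG. RefSeq start sites (GRCh38.p14) matched 39 of the 44 members, PHB by its current symbol, and NOLC1, RRP12, RRS1, BOP1 and SORD had no entry. Windows from 250 bases before to 50 after each start were searched for CACGTG, which reads the same on both strands. It was present at a listed start of 22 of the 39 members (56.4%), beside 2396 of all 27305 genes (8.78%) and 1727 of 15843 protein-coding genes (10.9%). The members were chosen as MYC targets, so their higher share is no independent result. CACGCG or its complement CGCGTG, which can overlap each other, was present in 10 of 39 members (25.6%), beside 13.5% of all and 18.1% of protein-coding genes. The 100 bases before the start are shown for a pair of members that rose in both genotypes, for UTP20, which moved in opposite directions, and for 4 members whose falls were large or whose promoters face each other, 5′ to 3′ along the gene's strand with CACGTG in capitals.
DDX21, chr10:68956547-68956646, plus strand: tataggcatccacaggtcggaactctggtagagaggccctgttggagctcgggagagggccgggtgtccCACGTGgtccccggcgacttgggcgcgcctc
ODC1, chr2:10448013-10448112, minus strand: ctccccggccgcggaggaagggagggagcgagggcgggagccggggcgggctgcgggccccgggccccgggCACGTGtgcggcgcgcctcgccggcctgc
UTP20, chr12:101280005-101280104, plus strand: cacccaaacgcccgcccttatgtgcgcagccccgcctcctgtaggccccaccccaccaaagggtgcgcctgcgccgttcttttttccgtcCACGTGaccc
DCTPP1, chr16:30429801-30429900, minus strand: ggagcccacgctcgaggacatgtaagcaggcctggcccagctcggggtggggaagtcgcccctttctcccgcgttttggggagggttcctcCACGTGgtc
EXOSC5, chr19:41397360-41397459, minus strand: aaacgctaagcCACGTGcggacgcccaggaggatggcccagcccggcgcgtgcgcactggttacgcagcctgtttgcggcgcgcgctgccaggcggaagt
HSPE1, chr2:197500279-197500378, plus strand: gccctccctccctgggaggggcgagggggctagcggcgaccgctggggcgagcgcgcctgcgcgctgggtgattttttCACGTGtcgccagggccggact
HSPD1, chr2:197500275-197500374, minus strand: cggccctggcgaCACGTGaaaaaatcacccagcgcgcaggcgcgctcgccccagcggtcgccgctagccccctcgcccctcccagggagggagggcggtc
The CACGTG began 31 bases before the DDX21 start, 29 before that of ODC1, 10 before that of UTP20, 9 before that of DCTPP1 and 89 before that of EXOSC5. HSPE1 and HSPD1 are transcribed away from each other, and the CACGTG in their 2 sequences is the same one, at chr2:197500357-197500362. In knockout cells the 22 members with CACGTG had a median log2 fold change of -0.64, with 13 called lower and 6 higher, and the 17 without it in these windows had -0.57, with 12 lower and 3 higher. The medians in wild-type cells were -0.64 with and -0.53 without CACGTG. A match is only a description of these letters and does not show that MYC binds there.

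Among the 5 members grouped here under snoRNPs and rRNA modification, 3 fell in each genotype. FBL, the methyltransferase of box C/D snoRNPs, illustrates the fall. In knockout cells FBL had 73.3, 77.4 and 80.9 CPM under CC-885 and 152, 152 and 139 CPM under DMSO. Wild-type values of FBL were 93.3, 99.5 and 90.6 CPM under CC-885 and 155, 155 and 149.7 CPM under DMSO. CC-885 libraries were below DMSO libraries in both genotypes, with no overlap. The log2 fold change of FBL was -0.94 (SE 0.06, adjusted p = 4.38e-10) in knockout and -0.70 (SE 0.06, adjusted p = 2.44e-08) in wild-type cells by edgeR. NOP2, which methylates a cytosine of large-subunit rRNA, changed by -0.79 and -0.98, and PUS7, a pseudouridine synthase, by -0.34 and -0.85, in knockout and in wild-type cells. NOP56, another box C/D core protein, and RRP9, a component of the U3 snoRNP, were called in neither genotype under CC-885, with 0.12 and 0.23 in knockout and -0.15 and -0.16 in wild-type cells. Without wild-type CC-885 replicate 3 the wild-type values were -0.17 for NOP56 and -0.36 for RRP9, and both were called (edgeR adjusted p = 0.0396 and 0.00117). In DMSO, 4 of these 5 were lower in knockout than in wild-type cells, beside 28.4% of all genes. FBL was the exception with -0.05 (SE 0.06, edgeR adjusted p = 0.468). The RRP9 difference there, -0.37, was not called when wild-type DMSO replicate 2 or 3 or any knockout DMSO library was left out.

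Of the 5 small-subunit factors, 4 rose in knockout cells and none fell, while 1 rose and 1 fell in wild-type cells. Their median log2 fold change was 0.33 in knockout cells and -0.11 in wild-type cells. RRP12, needed for export and maturation of pre-40S particles, rose in both genotypes. In knockout cells RRP12 had 73.1, 75.9 and 77.7 CPM under CC-885 and 45.3, 44.9 and 43.9 CPM under DMSO. Wild-type values of RRP12 were 189, 186 and 175 CPM under CC-885 and 97.7, 106 and 111 CPM under DMSO. The CC-885 libraries were above the DMSO libraries in each genotype, and every wild-type library was above every knockout library. RRP12 rose by 0.76 (SE 0.06, adjusted p = 6.20e-09) in knockout and 0.81 (SE 0.06, adjusted p = 3.71e-09) in wild-type cells on the log2 scale (edgeR). It was the member with the largest rise in wild-type cells.

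UTP20, a large component of the small-subunit processome, was the member called in opposite directions. In knockout cells UTP20 had 32.0, 28.9 and 30.3 CPM under CC-885 and 21.1, 26.4 and 24.7 CPM under DMSO. Wild-type values of UTP20 were 43.7, 45.2 and 50.4 CPM under CC-885 and 54.9, 62.9 and 68.3 CPM under DMSO. CC-885 libraries were higher than DMSO libraries in knockout cells and lower in wild-type cells, without overlap in either. The log2 fold change was 0.34 (SE 0.10, adjusted p = 0.00434) in knockout and -0.42 (SE 0.09, adjusted p = 8.13e-04) in wild-type cells, and the difference of the responses was 0.76 (SE 0.13, adjusted p = 4.88e-04) by edgeR. The knockout rise of UTP20 was 0.19 and not called with upper-quartile scaling. WDR43, another processome component, rose by 0.33 (SE 0.10, adjusted p = 0.00689) and BYSL (bystin), a pre-40S factor, by 0.18 (SE 0.07, adjusted p = 0.0337) in knockout cells on the log2 scale, and neither was called in wild-type cells. The WDR43 rise was not called with upper-quartile scaling. The BYSL rise was not called with that scaling, with scaling by library size alone, without a filter, or without knockout DMSO replicate 2 or 3 or knockout CC-885 replicate 2 or 3. PRMT3, which methylates the small-subunit protein RPS2, had 0.13 (SE 0.09, adjusted p = 0.215) in knockout and -0.15 (SE 0.09, adjusted p = 0.155) in wild-type cells. The wild-type PRMT3 value was -0.25 and called without wild-type CC-885 replicate 3 (edgeR adjusted p = 0.0138).

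Of the 12 large-subunit factors, 10 fell in knockout cells and 9 in wild-type cells. RRS1, in yeast, helps to place the 5S ribonucleoprotein on the large subunit. In knockout cells RRS1 had 19.2, 18.4 and 17.6 CPM under CC-885 and 58.4, 62.7 and 59.4 CPM under DMSO. Wild-type values of RRS1 were 30.9, 29.1 and 29.4 CPM under CC-885 and 76.2, 87.7 and 87.6 CPM under DMSO. The CC-885 libraries held 30.6% of the DMSO mean in knockout cells and 35.6% in wild-type cells, and the treatments were far apart in both. RRS1 changed by -1.71 (SE 0.07, adjusted p = 2.09e-12) in knockout and -1.49 (SE 0.07, adjusted p = 1.78e-11) in wild-type cells (edgeR). EXOSC5, a core subunit of the RNA exosome that trims rRNA precursors, had the largest fall of this role in knockout cells. In knockout cells EXOSC5 had 8.41, 9.65 and 9.08 CPM under CC-885 and 44.3, 38.7 and 43.1 CPM under DMSO. Wild-type values of EXOSC5 were 20.9, 20.6 and 26.5 CPM under CC-885 and 51.2, 54.6 and 55.7 CPM under DMSO. All 3 knockout CC-885 libraries were under every other library, followed by the wild-type CC-885 libraries. Its log2 fold change was -2.22 (SE 0.10, adjusted p = 5.91e-12) in knockout and -1.25 (SE 0.10, adjusted p = 6.27e-09) in wild-type cells (edgeR). Without wild-type CC-885 replicate 3, EXOSC5 had -1.38 in wild-type cells.

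The other large-subunit members that fell in both genotypes had smaller changes. MRTO4, a relative of the ribosomal stalk protein, changed by -1.11 in knockout and -0.80 in wild-type cells, and NOP16 by -1.04 and -0.93 in the same order. BOP1, a subunit of the PeBoW complex with PES1 and WDR12, changed by -0.68 and -0.69, and NIP7 by -0.63 and -0.77. PPAN, with a mean of 4.02 ± 0.392 CPM in knockout CC-885 and 8.59 ± 0.136 CPM in wild-type DMSO libraries (SD, n = 3 each), changed by -0.63 and -0.72; it runs into P2RY11 in an annotated readthrough transcript. PA2G4, which sits at the exit of the ribosomal tunnel, changed by -0.57 and -0.65, and LAS1L, part of the nuclease that cuts the spacer next to 28S rRNA, by -0.29 and -0.45. GNL3 (nucleostemin), a nucleolar GTPase, changed by -0.49 (SE 0.18, adjusted p = 0.0304) in knockout cells, a call lost without knockout DMSO replicate 2 or 3 or knockout CC-885 replicate 1 or 3, and had -0.35 (SE 0.18, adjusted p = 0.115) in wild-type cells, where its 3 CC-885 libraries had 116, 119 and 203 CPM. Without the third of these libraries the wild-type GNL3 value was -0.66 (edgeR, SE 0.068, adjusted p = 2.62e-08).

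WDR74 and GRWD1 rose instead. WDR74, a partner of the ATPase NVL in large-subunit maturation, was one of the 5 members to rise in both genotypes. In knockout cells WDR74 had 73.8, 77.9 and 82.0 CPM under CC-885 and 47.8, 42.9 and 44.5 CPM under DMSO. Wild-type values of WDR74 were 62.5, 58.3 and 72.5 CPM under CC-885 and 46.9, 56.0 and 55.0 CPM under DMSO. The treatments did not overlap in either genotype. WDR74 rose by 0.79 (SE 0.09, adjusted p = 4.15e-07) in knockout and 0.29 (SE 0.09, adjusted p = 0.00682) in wild-type cells on the log2 scale by edgeR. GRWD1, a WD-repeat protein of large-subunit assembly, rose in knockout cells by 0.52 (SE 0.07, adjusted p = 2.64e-06) and had -0.08 (SE 0.07, adjusted p = 0.291) in wild-type cells. In knockout cells GRWD1 had 91.8, 97.1 and 101 CPM under CC-885 and 68.5, 67.9 and 65.0 CPM under DMSO. Wild-type values of GRWD1 were 73.2, 75.3 and 86.0 CPM under CC-885 and 78.5, 85.3 and 84.3 CPM under DMSO. Its knockout treatments did not overlap, and its wild-type ones did. On the same strand, WDR74 shares an exon with RNU2-2P and GRWD1 with KCNJ14, and how such reads were counted is not known.

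Of the 7 members grouped under polyamine and nucleotide metabolism, with SORD counted among them, 6 fell in each genotype and ODC1 rose in both. Their median log2 fold changes were -1.53 in knockout and -1.23 in wild-type cells. SLC19A1, the reduced folate carrier that feeds nucleotide synthesis, showed the largest fall of all members in knockout cells. In knockout cells SLC19A1 had 13.8, 13.1 and 13.8 CPM under CC-885 and 84.9, 76.5 and 91.1 CPM under DMSO. Wild-type values of SLC19A1 were 32.3, 31.4 and 36.3 CPM under CC-885 and 95.9, 106 and 112 CPM under DMSO. The CC-885 means were 16.1% of the DMSO mean in knockout cells and 31.8% in wild-type cells, and no 2 of the 4 groups overlapped. SLC19A1 changed by -2.63 (SE 0.09, adjusted p = 1.18e-13) in knockout and -1.65 (SE 0.08, adjusted p = 2.88e-11) in wild-type cells (edgeR). DCTPP1, which hydrolyses dCTP and its analogues, fell next to it. In knockout cells DCTPP1 had 9.02, 11.7 and 11.6 CPM under CC-885 and 64.6, 57.5 and 64.2 CPM under DMSO. Wild-type values of DCTPP1 were 21.0, 21.2 and 28.7 CPM under CC-885 and 82.0, 80.2 and 83.3 CPM under DMSO. The groups were in the order knockout CC-885, wild-type CC-885, knockout DMSO and wild-type DMSO from low to high, with no overlap. DCTPP1 changed by -2.53 (SE 0.12, adjusted p = 3.61e-11) in knockout and -1.79 (SE 0.12, adjusted p = 2.07e-09) in wild-type cells (edgeR), and by -1.95 in wild-type cells without wild-type CC-885 replicate 3.

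CAD, the protein that carries the first steps of pyrimidine synthesis, was nearly constant within each knockout group. In knockout cells CAD had 36.4, 36.7 and 36.2 CPM under CC-885 and 143, 142 and 142 CPM under DMSO. Wild-type values of CAD were 77.7, 71.5 and 63.1 CPM under CC-885 and 152, 173 and 192 CPM under DMSO. Under CC-885 CAD was lower than under DMSO in every library of both genotypes. It changed by -1.96 (SE 0.08, adjusted p = 2.98e-12) in knockout and -1.28 (SE 0.08, adjusted p = 7.09e-10) in wild-type cells (edgeR). SRM, the spermidine synthase, had 38.1% of its DMSO mean in knockout cells and 42.5% in wild-type cells, with log2 fold changes of -1.39 and -1.23. NME1, a nucleoside diphosphate kinase, changed by -1.53 in knockout and -0.96 in wild-type cells, and SORD (sorbitol dehydrogenase) by -0.54 and -0.40. NME1 shares a readthrough transcript with its neighbour NME2, and its reads may be split between them.

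ODC1 makes putrescine, the first polyamine, and is a textbook MYC target. In knockout cells ODC1 had 428, 438 and 443 CPM under CC-885 and 198, 208 and 209 CPM under DMSO. Wild-type values of ODC1 were 456, 451 and 439.6 CPM under CC-885 and 286, 297 and 285 CPM under DMSO. The CC-885 libraries of the genotypes overlapped at a high level, and the DMSO libraries were lower, most of all in knockout cells. ODC1 rose by 1.09 (SE 0.05, adjusted p = 6.65e-12) in knockout and 0.63 (SE 0.05, adjusted p = 8.60e-09) in wild-type cells on the log2 scale (edgeR). SRM, which uses the putrescine that ODC1 makes, fell in the same libraries.

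Of the 9 chaperones, import factors and mitochondrial factors, 5 fell and 2 rose in knockout cells, and 6 fell and 1 rose in wild-type cells. HSPE1 and HSPD1 form the mitochondrial HSP10 and HSP60 chaperonin and share the promoter shown above. In knockout cells HSPE1 had 10.2, 11.9 and 10.5 CPM under CC-885 and 46.7, 47.2 and 56.1 CPM under DMSO. Wild-type values of HSPE1 were 24.0, 24.5 and 44.3 CPM under CC-885 and 62.2, 77.5 and 79.5 CPM under DMSO. The knockout CC-885 libraries were the lowest 3, and wild-type CC-885 replicate 3 was far above its 2 partners and close to knockout DMSO. HSPE1 changed by -2.20 (SE 0.23, adjusted p = 4.47e-06) in knockout and -1.24 (SE 0.21, adjusted p = 3.45e-04) in wild-type cells (edgeR), and by -1.59 in wild-type cells without wild-type CC-885 replicate 3. In knockout cells HSPD1 had 314, 327 and 321 CPM under CC-885 and 523, 611 and 529.8 CPM under DMSO. Wild-type values of HSPD1 were 612, 611 and 694 CPM under CC-885 and 938, 974 and 923 CPM under DMSO. The treatments did not overlap in either genotype, and HSPD1 had log2 fold changes of -0.79 in knockout and -0.56 in wild-type cells. HSPE1 has 26 and HSPD1 17 annotated pseudogenes named after them, and HSPE1 has a readthrough transcript into MOB4.

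PHB (prohibitin), of the inner mitochondrial membrane, changed by -1.28 (SE 0.09, adjusted p = 2.25e-09) in knockout and -0.88 (SE 0.09, adjusted p = 2.64e-07) in wild-type cells (edgeR). TFB2M, a mitochondrial transcription factor, changed by -0.64 in knockout and -0.53 in wild-type cells. The wild-type TFB2M value was -0.85 without wild-type CC-885 replicate 3, and it was not called without wild-type DMSO replicate 2 or 3 or wild-type CC-885 replicate 1 or 2. TBRG4, which acts on mitochondrial RNA, had -0.19 and -0.22 in the same order, and its call was lost in knockout cells without knockout DMSO replicate 1 or 3 or knockout CC-885 replicate 1 or 2, and in wild-type cells without wild-type DMSO replicate 3 or wild-type CC-885 replicate 1 or 2. NDUFAF4, an assembly factor of respiratory complex I, was called in neither genotype, with -0.53 (SE 0.24, adjusted p = 0.0627) in knockout and -0.11 (SE 0.23, adjusted p = 0.683) in wild-type cells, whose CC-885 libraries had 25.0, 25.5 and 50.2 CPM. Without the third of these libraries the wild-type NDUFAF4 value was -0.52 (edgeR, SE 0.091, adjusted p = 3.21e-05). IPO4, an importin, had -0.02 (SE 0.07, adjusted p = 0.791) in knockout cells and -0.58 (SE 0.07, adjusted p = 8.30e-07) in wild-type cells, the only member called lower in wild-type and not called in knockout cells.

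SUPV3L1, an RNA helicase of mitochondria, rose. In knockout cells SUPV3L1 had 35.4, 35.1 and 34.1 CPM under CC-885 and 16.6, 18.0 and 16.2 CPM under DMSO. Wild-type values of SUPV3L1 were 57.3, 54.7 and 61.5 CPM under CC-885 and 33.1, 33.9 and 36.0 CPM under DMSO. Knockout cells given CC-885 were level with wild-type cells given DMSO, and knockout cells given DMSO were the lowest group. SUPV3L1 rose by 1.04 (SE 0.07, adjusted p = 7.92e-10) in knockout and 0.75 (SE 0.07, adjusted p = 5.12e-08) in wild-type cells on the log2 scale (edgeR). AIMP2, a scaffold of the multi-tRNA synthetase complex, rose by 0.27 (SE 0.06, adjusted p = 4.75e-04) in knockout cells, which was not called with upper-quartile scaling, and had 0.11 (SE 0.06, adjusted p = 0.107) in wild-type cells.

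**Figure D4:**
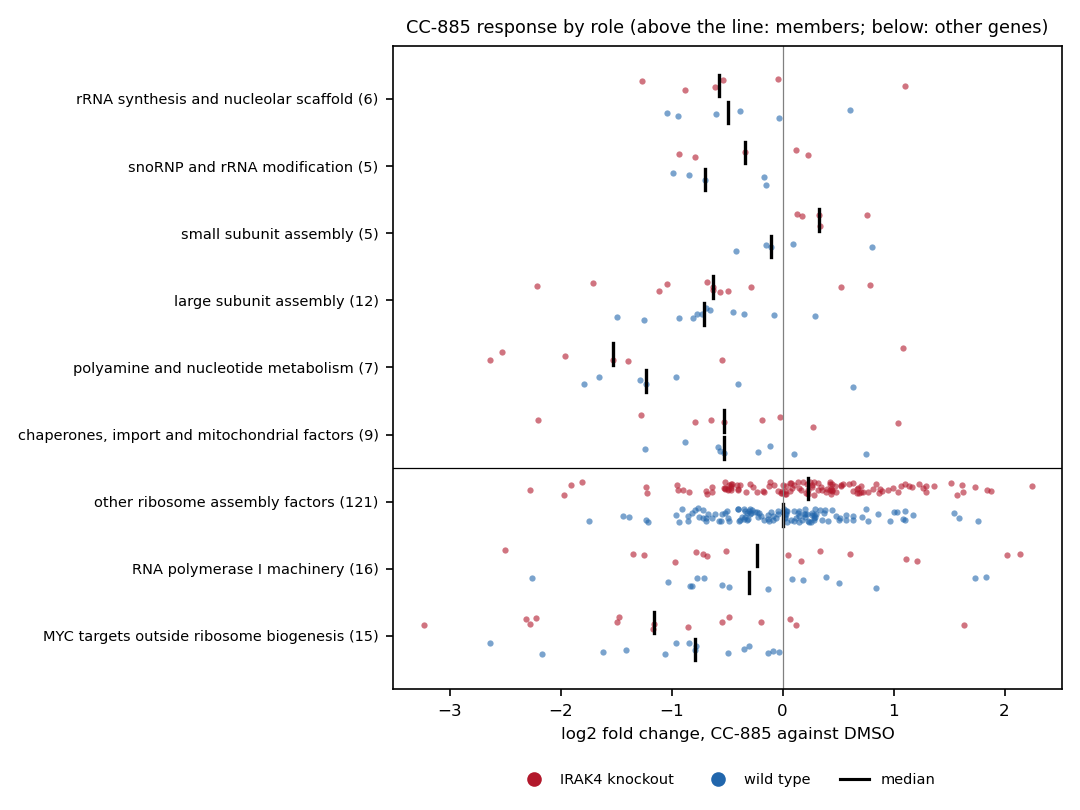
Log2 fold change of CC-885 over DMSO for each member, grouped by its role, and for genes of 3 other lists, with IRAK4 knockout cells in red and wild-type cells in blue; black bars are medians. The small-subunit factors lie above 0 in knockout cells with a median of 0.33, and the polyamine and nucleotide members lie lowest with medians of -1.53 in knockout and -1.23 in wild-type cells.

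Without CC-885, IRAK4 knockout cells had less mRNA of most members than wild-type cells. In DMSO, 36 of the 44 members were lower in knockout cells and none was higher, beside 49.7% of all genes called, 28.4% lower and 21.3% higher (edgeR, adjusted p under 0.05). The median log2 fold change of knockout over wild type was -0.42, against -0.058 over all genes tested, and 5 members were at least 2-fold lower (6.68% of all genes). The groups did not overlap for 39 members, as for 59.8% of all genes. The 5 largest differences were DDX21 with -1.62, UTP20 with -1.37, RRP12 with -1.23, NOLC1 with -1.22 and SUPV3L1 with -1.02 (edgeR adjusted p 2.09e-08, 1.05e-08, 1.97e-10, 6.34e-10 and 7.86e-09). DDX21, RRP12, NOLC1 and SUPV3L1 lie on chromosome 10 and are the only members there, and UTP20 lies on chromosome 12. The part of chromosomal location in these differences was not tested, and clone and genotype cannot be told apart. All 5 small-subunit members were lower, as were 11 of 12 large-subunit members, and the 8 members not called were HSPE1, PHB, TFB2M, GNL3, NME1, SRM, POLR1B and FBL. Over all genes, 42.9% of the calls were higher in knockout cells with TMM and 60.7% with upper-quartile scaling, which shifted the median of all genes by 0.12. The members' median was then -0.30. MYC mRNA itself was higher in knockout than in wild-type DMSO libraries, with a log2 fold change of 0.20 (SE 0.06, adjusted p = 0.0143) by edgeR. The call of NDUFAF4, at -0.70, was lost without wild-type DMSO replicate 2 or 3 or any knockout DMSO library, and those of CAD and LAS1L without wild-type DMSO replicate 3. WDR43, at -0.26, lost its call without any 1 of the wild-type DMSO or knockout CC-885 libraries or knockout DMSO replicate 1 or 3, and WDR74, at -0.22, without replicate 2 or 3 of either DMSO group or any knockout CC-885 library. This comparison uses the same DMSO libraries as the responses above.

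Most members were also lower in knockout cells under CC-885. In CC-885-treated cells, 29 members were lower and 2 were higher in knockout than in wild-type cells, beside 58.6% of all genes called, 30.8% lower and 27.8% higher. The median was -0.47, against -0.016 over all genes, and 8 members were at least 2-fold lower (9.63% of all genes). The groups did not overlap for 35 members, as for 63.1% of all genes. HSPE1 with -1.51, EXOSC5 with -1.33, SLC19A1 with -1.30, RRP12 with -1.28 and NOLC1 with -1.22 had the largest differences (edgeR adjusted p 1.92e-04, 1.82e-08, 3.23e-09, 9.71e-11 and 4.53e-10). The members higher in knockout cells were GRWD1 with 0.30 (SE 0.07, adjusted p = 0.00112) and WDR74 with 0.27 (SE 0.09, adjusted p = 0.0129), the second of which was not called without wild-type CC-885 replicate 2 or knockout CC-885 replicate 3. NOLC1 and RRP12 thus differed by about the same amount under both treatments, whereas the EXOSC5 difference was -0.36 under DMSO and that of SLC19A1 -0.32. Without wild-type CC-885 replicate 3, 29 members were lower and 3 higher, with a median of -0.46, HSPE1 had -1.16 and NDUFAF4 had -0.71 in place of -1.12. The call of NIP7, -0.22, was lost without that library, RRP9 was then called higher with 0.22 in place of 0.02, PPAN was called lower with -0.55 in place of -0.37, and TBRG4 had -0.14. The call of TBRG4, -0.25, was lost without knockout CC-885 replicate 1.

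**Figure D5:**
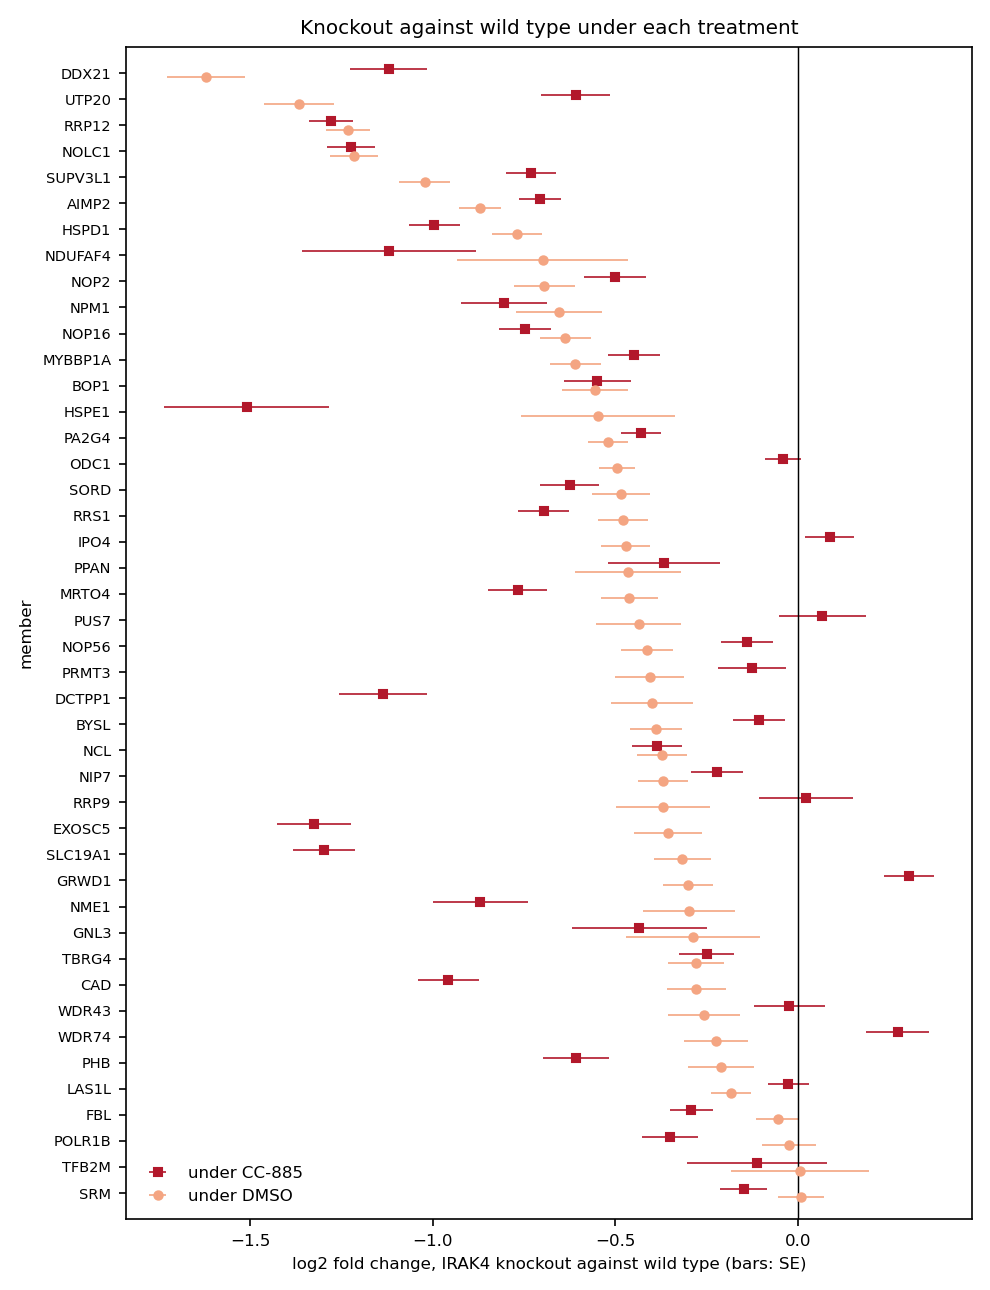
Log2 fold change of IRAK4 knockout over wild type for each of the 44 members under CC-885 and under DMSO, with bars of ±1 SE from the edgeR fit. Nearly all members lie below 0; DDX21 and UTP20 are lowest under DMSO at -1.62 and -1.37, and HSPE1 and EXOSC5 are lowest under CC-885 at -1.51 and -1.33.

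The responses to CC-885 differed between the genotypes for 20 members, by the interaction term (response in knockout minus response in wild-type cells). The term was positive for 10 members and negative for 10, beside 34.7% of all genes called, 17.9% positive and 16.8% negative. A called term of -1 or lower (at least 2-fold) was found for 0 members and 4.4% of all genes. The median over the members was -0.00107. UTP20 with 0.76 (SE 0.13, adjusted p = 4.88e-04) and GRWD1 with 0.61 (SE 0.10, adjusted p = 1.95e-04) had the highest terms, followed by IPO4 with 0.56, PUS7 with 0.50, DDX21 with 0.50 and WDR74 with 0.50 (edgeR). SLC19A1 with -0.98 (SE 0.11, adjusted p = 1.40e-05) and EXOSC5 with -0.97 (SE 0.14, adjusted p = 7.10e-05) had the lowest, followed by HSPE1 with -0.96, DCTPP1 with -0.74 and CAD with -0.68. The negative group included 4 of the 7 polyamine and nucleotide members, while the small-subunit factors gave 2 positive and no negative terms. For MYC mRNA the term was -0.93 (SE 0.09, adjusted p = 3.24e-06). The 9 members UTP20, WDR74, GRWD1, EXOSC5, ODC1, CAD, DCTPP1, SLC19A1 and IPO4 were called in every alternative tried, and the other 11 lost the call in at least 1. These counts rested on single libraries: the negative terms were 4 without wild-type DMSO replicate 1 or knockout CC-885 replicate 1, and 6 without knockout DMSO replicate 1 or knockout CC-885 replicate 2. The positive terms were 6 without wild-type DMSO replicate 3, wild-type CC-885 replicate 1, wild-type CC-885 replicate 2 or knockout CC-885 replicate 2. Without wild-type CC-885 replicate 3 there were 14 positive and 9 negative terms with a median of 0.13, the HSPE1 term was -0.61 and the NME1 term -0.35. RRP9, WDR43, PRMT3 and NIP7 were then called as well, with 0.59, 0.39, 0.38 and 0.22, and MRTO4, at -0.19, was not. The HSPE1 call was lost without wild-type DMSO replicate 1 or 2, knockout DMSO replicate 1 or 3, or knockout CC-885 replicate 1 or 3. That of PUS7 was lost without wild-type DMSO replicate 2 or 3, wild-type CC-885 replicate 1 or 2, knockout DMSO replicate 1, or knockout CC-885 replicate 2 or 3. Over all genes, 51.6% of the calls were positive with TMM, 39.7% with upper-quartile scaling and 38.5% without a filter.

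Per length of exon, which corrects for the length of genes, NPM1 was the most abundant member in every group, at 198.9 CPM per kb in knockout CC-885, 288.6 in knockout DMSO, 347.5 in wild-type CC-885 and 454.2 in wild-type DMSO libraries. How reads of its 45 named pseudogenes were counted is not known. The same holds for exons that members such as PPAN share with readthrough transcripts, and either can shift these ranks. NCL and HSPD1 were among the highest 4 in every group. ODC1 ranked 3 in knockout CC-885 libraries at 147.5 CPM per kb and 4 in wild-type CC-885 libraries at 151.6 CPM per kb. PPAN was the lowest member in knockout CC-885 libraries at 2.31 CPM per kb, followed by SLC19A1 at 2.90 and UTP20 at 3.37. In knockout DMSO libraries UTP20 was lowest at 2.67 CPM per kb, ahead of PPAN at 3.58. In wild-type libraries PPAN and UTP20 were the lowest pair, with 2.98 and 5.14 CPM per kb under CC-885 and 4.94 and 6.88 CPM per kb under DMSO.

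Other genes of ribosome assembly, outside the 44, moved in both directions. Of 121 other ribosome assembly factors, 61 (50.4%) rose and 34 (28.1%) fell under CC-885 in knockout cells (median 0.23), beside 38.9% and 40% of all genes. In wild-type cells 38 (31.4%) rose and 49 (40.5%) fell, beside 35.7% and 36.6% of all genes. ZNF622 and SBDS, which act on late cytoplasmic 60S particles, rose by 2.24 and 1.88 in knockout and by 1.76 and 1.59 in wild-type cells on the log2 scale. LSG1, the GTPase that releases the export adaptor NMD3, rose by 1.63 in knockout and 1.18 in wild-type cells, ZNF593 by 1.73 in knockout cells and the exosome subunit EXOSC6 by 1.55 in wild-type cells. TCOF1 (treacle), NOB1, the nuclease that finishes 18S rRNA, NHP2 of box H/ACA snoRNPs and IMP3 of the U3 snoRNP had the largest falls in knockout cells, at -2.28, -1.97, -1.91 and -1.81. In wild-type cells TCOF1, RRP1B, NOB1 and IMP3 fell most, at -1.74, -1.44, -1.38 and -1.23. In DMSO, 86 of the 121 (71.1%) were lower in knockout than in wild-type cells and WBSCR22 alone was higher, with 0.56. Of all genes, 28.4% were lower and 21.3% higher there. ZNF622, BRIX1, GTPBP4 and BMS1 were lowest with -1.54, -1.50, -1.33 and -1.21. As for the members, the part of chromosomal location in these differences was not tested, and clone and genotype cannot be told apart. Under CC-885, 41 (33.9%) were lower and 24 (19.8%) higher in knockout cells, beside 30.8% and 27.8% of all genes. Among them were BRIX1 with -1.63, TCOF1 with -1.22, KRR1 with -1.06 and ZNF622 with -1.05, and EFTUD1 with 0.63, RRP15 with 0.45, WBSCR22 with 0.44 and REXO4 with 0.39.

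The 16 genes of the RNA polymerase I machinery split under CC-885. In knockout cells 7 (43.75%) were higher and 8 (50%) lower, beside 38.9% and 40% of all genes. In wild-type cells 5 (31.25%) were higher and 8 (50%) lower, beside 35.7% and 36.6%. TAF1D and TAF1A of the promoter selectivity factor, the initiation factor RRN3 and the termination factor TTF1 rose, by 2.14, 1.21, 2.02 and 1.11 in knockout cells and by 1.83, 0.84, 1.73 and 0.51 in wild-type cells. CD3EAP, POLR1A and ZNRD1, which are polymerase subunits, changed by -2.50, -1.25 and -0.97 in knockout cells and by -2.26, -1.04 and -0.83 in wild-type cells. TAF1B changed by -1.35 in knockout cells and UBTF, the upstream binding factor, by -0.82 in wild-type cells. Knockout over wild type in DMSO gave 6 lower (37.5%) and none higher, beside 28.4% and 21.3% of all genes. TAF1D with -0.67, POLR1A with -0.32, UBTF with -0.29 and POLR1C with -0.28 were the lowest. Under CC-885, 9 (56.25%) were lower and 4 (25%) higher in knockout cells, beside 30.8% and 27.8% of all genes. POLR1A with -0.54, TAF1B with -0.52, CD3EAP with -0.50 and POLR1D with -0.43 were the lowest, and TTF1 with 0.44, TAF1A with 0.42, POLR2L with 0.31 and RRN3 with 0.22 were the higher ones. The RRN3 call was lost without wild-type CC-885 replicate 1 or 2 or knockout CC-885 replicate 1.

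Of 15 MYC targets outside ribosome biogenesis, 11 (73.3%) fell and 1 rose under CC-885 in knockout cells, beside 40% and 38.9% of all genes. In wild-type cells 12 (80%) fell and none rose, beside 36.6% and 35.7%. The medians were -1.16 in knockout and -0.79 in wild-type cells. UNG, which removes uracil from DNA, TMEM97, a sterol-regulated membrane protein, and the replicative helicase subunits MCM5 and MCM4 changed by -3.24, -2.31, -2.28 and -2.23 in knockout cells and by -2.63, -2.17, -1.41 and -1.62 in wild-type cells. HK2 (hexokinase 2) rose by 1.63 (SE 0.15, adjusted p = 1.86e-07) in knockout cells and had -0.13 (SE 0.14, adjusted p = 0.419) in wild-type cells by edgeR. In DMSO, 8 (53.3%) were lower and 1 higher in knockout than in wild-type cells, beside 28.4% and 21.3% of all genes. PPRC1 with -1.33, RABEPK with -0.81, HK2 with -0.79 and DUSP2 with -0.60 were the lowest. The part of chromosomal location was not tested here either. Under CC-885, 10 (66.7%) were lower and 2 (13.3%) higher, beside 30.8% and 27.8% of all genes. Among them were DUSP2 at -1.36, UNG at -0.998, PPRC1 at -0.96, MCM5 at -0.85 and HK2 at 0.98.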

How the data were processed

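RNA was sequenced from 12 THP-1 libraries in 4 groups of 3, as polyA-selected TruSeq libraries per the labels' protocols. The deposited values are the authors' raw counts by symbol, without normalization. The submitters' processing notes name GRCh38, featureCounts 1.5.2, HISAT2 2.0.5 and FastQC 0.11.2. The labels' extraction protocol names a mouse build instead, but the symbols are human. Whether counting used strand, and how it treated reads with several matches, is not given in the sources used here.

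Filtering of low genes with edgeR's filterByExpr left 16010 of 30017 symbols (99.98% of all counts). A quasi-likelihood model with 1 coefficient per group and trimmed mean (TMM) factors was fitted with edgeR 4.0.16 in R 4.3.3. P-values were adjusted by Benjamini-Hochberg over all 16010 genes and called under 0.05. The design was set by the labels' 2-by-2 layout. Levels are CPM with TMM factors, and the biological coefficient of variation was 0.0899. The pipeline was tested on simulated data. Alternatives were DESeq2 1.42.0, other scalings, no filter, covariates and leaving out each library. In each comparison the 5 largest called rises and falls are named, with every member called against the majority, and in other lists the 4 largest each way with at least 5 CPM in the higher group. The members and lists were chosen with earlier results of these data known. Replicate numbers did not pair the libraries: same-numbered libraries of different groups correlated above 0.1 in 2 of 18 pairs. Promoter windows came from RefSeq and exon lengths from GENCODE v29.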

Additional observations from a re-analysis of the deposited data

Results flagged for a closer look

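The difference between the CC-885 responses of the genotypes (knockout minus wild type, log2) passed the edgeR test for 20 members, for 72 genes of the 3 other lists, of which 20 are named here, and for MYC, IRAK4 and GSPT1. UTP20 moved in opposite directions, at 0.76. The other positive terms among the members were GRWD1 0.61, IPO4 0.56, PUS7 0.50, DDX21 0.50, WDR74 0.50, ODC1 0.46, SUPV3L1 0.29, BYSL 0.28 and NOP56 0.27. The negative ones were SLC19A1 -0.98, EXOSC5 -0.97, HSPE1 -0.96, DCTPP1 -0.74, CAD -0.68, NME1 -0.57, PHB -0.40, POLR1B -0.32, MRTO4 -0.31 and FBL -0.24.

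Of the 121 other assembly factors, 51 had a positive and 6 a negative called term, with a median of 0.24 over the list, beside 17.9% positive and 16.8% negative among all genes. Up to 4 terms each way are given per list, for genes with at least 5 CPM in the highest group: ZNF593 0.87, RRP15 0.75, GTPBP4 0.73, NOP58 0.69, NHP2 -0.70, EXOSC6 -0.60, NOB1 -0.58 and IMP3 -0.58. Of 16 RNA polymerase I genes 3 were positive and 2 negative, with TTF1 0.61, TAF1A 0.37, RRN3 0.29, TAF1B -0.58 and POLR1D -0.24. Of 15 MYC targets outside ribosome biogenesis 3 were positive and 7 negative, with HK2 1.76, PLK1 0.42, PPRC1 0.37, MCM5 -0.87, DUSP2 -0.76, CBX3 -0.71 and MCM4 -0.60. MYC itself had -0.93, IRAK4 1.41 and GSPT1 0.54.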

How the results depend on the processing

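Of 269 called values of single genes, 5875 recomputed values under up to 22 alternatives gave 5632 with the same direction and call, 243 with the same direction and no call, and 0 reversed. Calls held in every alternative for 32 of 38 members in the knockout response, 32 of 34 in the wild-type response, 27 of 36 in knockout over wild type under DMSO, 28 of 31 under CC-885, and 9 of 20 interaction terms. The knockout response median was -0.65 with library size alone, -0.70 with upper-quartile factors and -0.48 with a replicate block by library-name number. Upper-quartile factors gave 6 members higher in knockout cells, a wild-type median of -0.64, a DMSO median of -0.30 and an interaction median of -0.077. Without a filter the interaction median was -0.084 with 5 positive terms, and libraries with the prefix 51 alone gave a DMSO median of -0.33 and 5 members higher under CC-885. The cause of these shifts was not tested.

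Leaving out 1 library at a time gave 9 to 11 members higher and 26 to 29 lower in knockout cells (median -0.59 to -0.54), and 5 higher and 27 to 35 lower in wild-type cells (median -0.64 to -0.55). Knockout over wild type gave 30 to 40 lower under DMSO (median -0.48 to -0.39), and 1 to 3 higher and 29 to 30 lower under CC-885 (median -0.52 to -0.45). The single higher member under CC-885 came without wild-type CC-885 replicate 2 or knockout CC-885 replicate 3. Interaction terms numbered 6 to 14 positive and 4 to 9 negative (median -0.032 to 0.13), and the median of 0.13, without wild-type CC-885 replicate 3, reversed its sign. Where a group is left with 2 libraries, its spread is taken from all groups.

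The title numbers did not pair the libraries, with correlations of deviations from -0.034 to 0.23 over 18 same-numbered pairs. The replicate block by title number moved no count of member calls by more than 1.5 times, and the knockout median of -0.48 under the block by library-name number is the only median it moved beyond the spread. All knockout CC-885 libraries carry the library-name prefix 51, so that the prefix cannot be separated fully from that group. Prefix 52 marks wild-type DMSO replicates 2 and 3, wild-type CC-885 replicate 3 and knockout DMSO replicate 3. Correlations of deviations were -0.050 to 0.23 over the 28 pairs that share a prefix. Of these, 3 were above 0.1, and no pair of different prefixes was. The lowest value of any pair, -0.27, was between wild-type CC-885 replicate 3 and knockout DMSO replicate 1, whose prefixes differ. The members took 0.786% of counts in wild-type DMSO replicate 1, and 0.863% and 0.856% in replicates 2 and 3. Wild-type CC-885 replicate 3 had 0.665%, against 0.592% and 0.589% in replicates 1 and 2. Knockout DMSO replicate 3 had 0.603%, between replicates 1 and 2 at 0.583% and 0.615%. The prefix as a covariate and the prefix 51 libraries alone were among the alternatives above, in which no called value reversed. The second of these leaves wild-type DMSO with replicate 1 alone. The part of the prefix in the order of the groups by share of counts was not tested. Depth did not limit the members, of which PPAN had the fewest reads. The table does not say how reads from pseudogenes and overlapping genes were counted. Of the members, 11 have pseudogenes named after them, 10 share an exon with a gene on the same strand and 16 with one on the opposite strand.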
